A study of Mus musculus with 4 samples.

Results

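Transforming growth factor beta (TGF-beta) is a secreted cytokine that restrains inflammation and drives matrix production. It is released in a latent complex, held inactive by its own propeptide and often tethered to the matrix by a latent binding protein, and acts once it is freed. The active ligand binds the type II receptor TGFBR2, which recruits and phosphorylates the type I receptor TGFBR1. TGFBR1 in turn phosphorylates SMAD2 and SMAD3, and these enter the nucleus with SMAD4 to regulate transcription, while SMAD7 and SKIL hold the pathway in check. In the lung, TGF-beta signaling is known to be needed for the development and upkeep of alveolar macrophages (AMs), which live in the airspace and clear it of particles and surfactant.

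The 10 genes examined here were the ligand genes Tgfb1 and Tgfb2, the latent binding protein gene Ltbp1, the receptor genes Tgfbr1 and Tgfbr2, the signal transducers Smad2, Smad3 and Smad4, and the inhibitors Smad7 and Skil. They were taken by name from the 54532 genes of the count table, and each name matched 1 row. Bulk RNA-seq had been carried out on AMs from lungs of female wild-type (WT) mice. The control group held 2 libraries from mice without a tumor, and the tumor group held 2 libraries from mice that had carried 4T1 cells (murine breast cancer cells that spread to the lung) for 2 weeks. The cells had been injected into the mammary fat pad of mice with a BALB/c background. For staining, the study defined these macrophages as CD45+ CD11b- CD11c+ SiglecF+ cells, a gate that would leave out CD11b+ cells such as neutrophils. For sequencing its methods say only that AMs were purified, and the number of mice in a library is not given in the sources used here. Both groups were labelled WT, with no engineered allele. Nothing in the labels says that the libraries of a group came from separate animals, so p-values measure only the spread between these libraries, which may be technical. The comparison of the groups asked how AMs differ between lungs of mice with and without a distant mammary tumor.

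Libraries held between 16167147 and 19205737 counts, and neither group was consistently deeper. CPM, the unit of level here, is the read count of a gene brought to the same total in every library, after adjustment of library sizes by the trimmed mean of M values (TMM). Replicate libraries were not identical within counting noise (chi-square per gene 1.81 for the control and 2.30 for the tumor pair). All 13 AM markers were detected in every library, and their summed level was between 19120 and 19230 CPM for controls and between 13170 and 13260 CPM in the tumor libraries, with 12 of 13 lower and none higher. Transcripts of several other cell types were higher in the tumor libraries, while some lists given further below, such as alveolar type 2 and club cells, were lower. The 5 eosinophil markers summed to between 0.634 and 0.640 CPM for controls and between 2629 and 2669 CPM in the tumor libraries, and the 10 neutrophil markers to between 9.87 and 10.01 against between 3752 and 3794 CPM. The 6 basophil and mast cell markers and the 6 hepatocyte markers were at 3 counts or fewer in each control library, and reached at least 63.96 and 617.9 CPM in the tumor libraries. In bulk RNA, fewer cells of a type and less RNA per cell cannot be told apart, and the part of these cells in the results below was not tested.

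Of the 10 genes, 9 passed the filter on low counts, each with at least 21 counts in every library. Ltbp1 did not pass. In the tumor libraries 3 genes were higher (Smad3, Smad4 and Smad7) and 4 were lower (Tgfb1, Tgfb2, Tgfbr2 and Skil), with a Benjamini-Hochberg adjusted p under 0.05 in edgeR's quasi-likelihood test over all 14256 genes tested. Tgfbr1 and Smad2 did not pass the threshold. Among all genes tested 53.8% passed, 29.0% higher and 24.8% lower, so passing was common in this comparison. With a change of at least 1.5-fold required as well, 3 of the 9 genes passed (Smad3, Smad7 and Tgfb2), against 25.3% of all genes. Over the 9 genes the log2 fold change had a median of -0.01, against 0.02 over all genes.

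**Figure D1:**
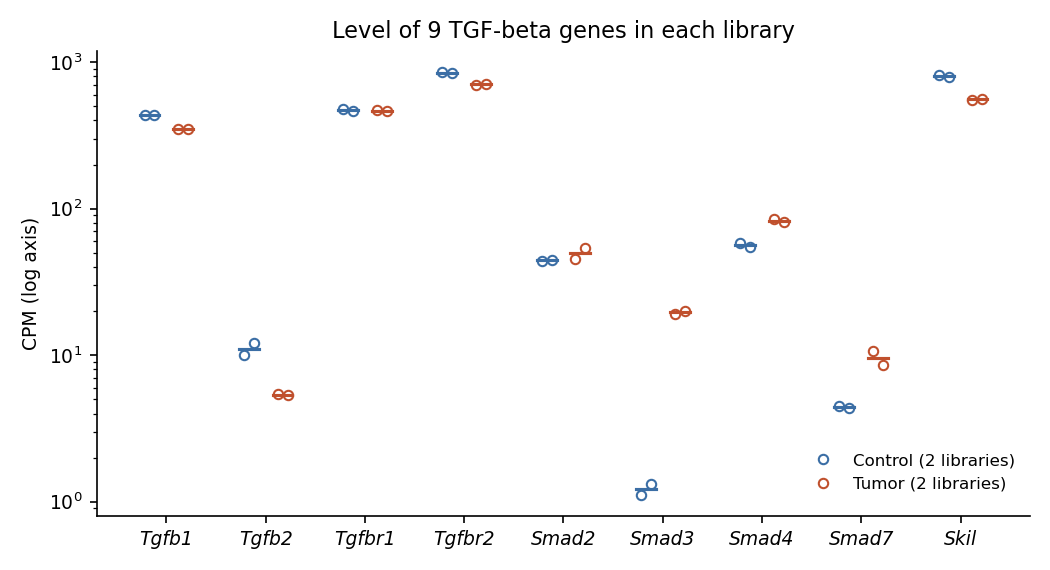
Level of 9 TGF-beta genes in each library, in CPM on a log axis. Circles are single libraries, blue for control and orange for tumor, and bars are means of 2. Smad3 stands at 1.12 and 1.33 CPM in the control and at 19.1 and 20.1 CPM in the tumor libraries, while the pairs of Tgfbr1 overlap. Ltbp1, with 0 counts in 3 libraries, is not drawn.

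Which genes count as lower depends on how the libraries are scaled. When the libraries were scaled on the AM markers, so that their median ratio was set to no change, the median log2 fold change of all genes moved to 0.53 and 93.8% of the genes past the threshold were higher, against 53.9% under TMM. Under this scaling 75.8% of all genes tested passed, 71.1% higher and 4.71% lower. Of the 9 genes, 7 were then higher and only Tgfb2 was lower. The single AM markers had no common fall under TMM. Their log2 fold changes had a median of -0.48 and ran from -0.04 for Ear2 and -0.16 for Siglecf to -1.09 for Lpl and -2.13 for Fabp4. The signs under this scaling therefore rest on the choice of markers and on their median. Directions below are those under TMM scaling, and the pathway lists are also given under scaling on the AM markers, where counts are to be read against these shares. Ratios between genes within a library do not depend on the scaling and are given for that reason.

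The ligands were considered first. Tgfb1 (ENSMUSG00000002603, plus strand of chromosome 7, 25687002 to 25705077, build GRCm38) encodes the main TGF-beta of immune cells. It was at 433.5 and 438.8 CPM in the control libraries and at 347.8 and 350.1 CPM in the tumor libraries. Both tumor libraries were thus below both control libraries, and each pair lay close together. The tumor level was 80.0% of the control level (log2 fold change -0.32 ± 0.0265, SE, edgeR adjusted p = 3.00e-11). Under scaling on the AM markers the sign turned, to 0.19 with an adjusted p of 1.81e-07.

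Tgfb2 (ENSMUSG00000039239, minus strand of chromosome 1, 186622792 to 186705989) encodes a second ligand that is better known from epithelium and developing tissues. It had 188 and 192 counts in the control and 94 and 105 in the tumor libraries, or 11.1 ± 1.51 against 5.39 ± 0.0544 CPM (SD, n = 2 each). The groups did not overlap, with the higher tumor library at 5.43 and the lower control library at 10.03 CPM. The level fell by 1.04 on the log2 scale, with an SE of 0.159 and an edgeR adjusted p of 2.92e-06. Scaling on the AM markers gave -0.52, still past the threshold, with an adjusted p of 0.00462. An antisense gene, Gm29491, shares 124 exonic bases with Tgfb2 and had 0 counts in every library. No other gene of the table shares exonic bases with any of the 10 genes.

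Per kilobase of gene length, Tgfb1 made up 97.6% to 98.0% of the summed level of Tgfb1, Tgfb2 and Tgfb3 in the control and 98.6% to 98.7% in the tumor libraries. The share of Tgfb2 was 1.97% and 2.36% in the control and 1.34% and 1.31% in the tumor libraries. Tgfb3, the third ligand gene, did not exceed 4 counts and was not tested. The ligand transcripts in these libraries were therefore almost entirely Tgfb1 in both groups.

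Ltbp1 (ENSMUSG00000001870, plus strand of chromosome 17, 75005568 to 75392512) encodes a matrix protein that binds latent TGF-beta. It had 9 counts in tumor replicate 1 and 0 counts in the other 3 libraries. A count of 0 allows up to 3 counts, or between 0.153 and 0.190 CPM in these libraries, and this limit covers counting error only. No change was detectable at this depth, since the reads came from a single library.

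Among the receptors, Tgfbr2 (ENSMUSG00000032440, minus strand of chromosome 9, 116084293 to 116175360) had the highest level of the 10 genes in both groups per kilobase of the deposited gene length. With the longest transcript as length, Tgfb1 was above it, at 170 against 105 CPM per kilobase in the control and 136 against 86.9 in the tumor group. It was at 857.2 and 839.8 CPM in the control and at 693.7 and 713.2 CPM in the tumor libraries, and the groups did not overlap. The tumor level was 82.9% of the control level (log2 fold change -0.27 ± 0.0225, SE, edgeR adjusted p = 3.83e-11). As for Tgfb1, scaling on the AM markers turned the sign, to 0.25 with an adjusted p of 8.19e-11.

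Tgfbr1 (ENSMUSG00000007613, plus strand of chromosome 4, 47353222 to 47414931) encodes the kinase that phosphorylates SMAD2 and SMAD3. It was at 479.9 and 461.0 CPM in the control and at 472.0 and 460.9 CPM in the tumor libraries, so that the groups overlapped. The estimate was -0.01 ± 0.0266 (log2, SE), for which edgeR gave an adjusted p of 0.711. Under scaling on the AM markers it was higher by 0.50, with an adjusted p of 2.32e-16. The ratio of the receptors is free of the scaling. Per kilobase, Tgfbr1 stood at 70.2% and 68.8% of Tgfbr2 in the control and at 85.3% and 81.0% in the tumor libraries. Relative to Tgfbr2, Tgfbr1 was therefore higher in both tumor libraries than in either control library, although with 2 libraries a group an exact permutation test cannot go below a two-sided p of 0.333.

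Of the 9 genes tested, the change of greatest size was in a SMAD transducer. Smad3 (ENSMUSG00000032402, minus strand of chromosome 9, 63646767 to 63757994) encodes a receptor-activated SMAD that binds DNA directly. It had 21 counts in each control library and 331 and 394 counts in the tumor libraries. In CPM this was 1.23 ± 0.149 for controls against 19.6 ± 0.683 with a tumor (SD, n = 2 each), a difference far beyond the spread within either group. Smad3 was 16.02-fold higher in the tumor libraries (log2 fold change 4.00 ± 0.184, SE, edgeR adjusted p = 7.03e-17). Its fold change lay at percentile 95.6 of all genes tested, with 631 genes at or above it. It was higher in each of the 12 alternative fits, with log2 fold changes from 3.86 to 4.52.

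Because Smad3 moved most and the study centers on the aryl hydrocarbon receptor (AHR), the sequence before its start is shown, next to that of Tgfb2, the gene with the largest fall among the 9 tested. These are the 250 bases upstream of the RefSeq start in build GRCm38.p6, written 5′ to 3′ on the strand of the gene. Capitals mark the SMAD box CAGAC and the AHR response core GCGTG, each searched on both strands (GTCTG and CACGC as reverse complements). The motifs do not overlap each other here. The Smad3 window is chr9:63757995-63758244 on the minus strand, and the Tgfb2 window is chr1:186705990-186706239 on the minus strand.
Smad3: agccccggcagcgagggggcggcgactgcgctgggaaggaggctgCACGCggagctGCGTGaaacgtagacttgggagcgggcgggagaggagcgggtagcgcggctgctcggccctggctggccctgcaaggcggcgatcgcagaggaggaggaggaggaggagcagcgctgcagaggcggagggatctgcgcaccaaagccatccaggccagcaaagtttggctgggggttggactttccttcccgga
Tgfb2: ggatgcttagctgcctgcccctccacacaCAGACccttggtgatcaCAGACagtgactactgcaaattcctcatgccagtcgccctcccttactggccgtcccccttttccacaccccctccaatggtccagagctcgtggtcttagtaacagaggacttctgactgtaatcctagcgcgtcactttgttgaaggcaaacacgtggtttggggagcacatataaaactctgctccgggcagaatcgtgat

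The Smad3 window held 2 AHR cores, starting 205 and 194 bases before the start, and no SMAD box. The Tgfb2 window held 2 SMAD boxes, 221 and 204 bases before the start, and no AHR core. A GC-rich SMAD motif (GGCGC) and an AP-1 site (TGACTCA) were also searched and had no match in either window. An AHR core was present in 28.2% and a SMAD box in 42.2% of 32851 such windows, so these short motifs are common, and a match is a description of letters only. Of the 10 genes, 6 were searched. Smad2, Smad4 and Smad7, which lie on chromosome 18, were left out of the search, and Skil had no promoter entry. Among the other entries, the windows of Tgfb1, Tgfbr2 and the first start of Tgfbr1 held 1, 1 and 2 AHR cores, and those of Ltbp1 and the second start of Tgfbr1 held none. SMAD boxes were also present before both starts of Ltbp1, with 1 and 2, and before Tgfbr2 and the second start of Tgfbr1, with 1 each. The GC content of the Smad3 window, 69.2%, lay at percentile 89.6 of all windows, and the shares of windows given above are not matched for GC content.

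Smad2 (ENSMUSG00000024563, chromosome 18) encodes the partner receptor SMAD. It was at 44.1 and 44.7 CPM in the control and at 45.6 and 54.1 CPM in the tumor libraries. Both tumor values were above the control values, but tumor replicate 1 exceeded them only slightly. The estimate was 0.17 ± 0.0747 (log2, SE), and its edgeR adjusted p was 0.0572. Under scaling on the AM markers it was 0.69 and past the threshold. The value depended on single tumor libraries. It was 0.28 with an adjusted p of 0.000580 without tumor replicate 1, and 0.03 with an adjusted p of 0.764 without tumor replicate 2.

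Smad4 (ENSMUSG00000024515, chromosome 18) encodes the common SMAD that joins the receptor SMADs. It was at 57.9 and 54.3 CPM in the control and at 85.0 and 80.7 CPM in the tumor libraries. The groups did not overlap. Smad4 was 1.47-fold higher in the tumor libraries (log2 fold change 0.56 ± 0.0563, SE, edgeR adjusted p = 1.82e-09). It stayed past the threshold in each of the 12 alternative fits, at 0.49 to 1.07.

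The makeup of the receptor SMAD pool differed between the groups. Per kilobase of the gene length in the deposited table, Smad3 made up 1.60% and 1.87% of Smad2 plus Smad3 in the control and 21.2% and 19.2% in the tumor libraries. The Smad2 gene is shorter in the deposited table, 3549 bases, than its longest transcript of 8089 bases in GENCODE. With the length of the longest transcript for both genes, the shares were 3.88% and 4.51% in the control and 40.0% and 37.1% in the tumor libraries. The contrast between the groups was thus present with either length, while the size of the share depended on it. Smad2 was above Smad3 in every library under both lengths. Smad4 made up between 53.2% and 55.3% of Smad2, Smad3 and Smad4 in the control and between 53.5% and 58.4% in the tumor libraries, and these ranges overlapped.

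**Figure D2:**
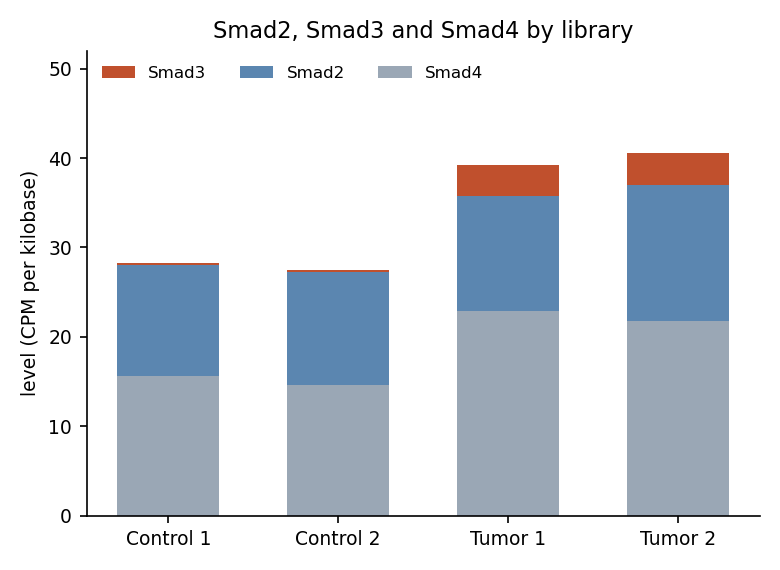
Level of Smad4 (grey), Smad2 (blue) and Smad3 (orange) in each library, in CPM per kilobase of gene length, stacked from 0. The Smad3 segment is 0.20 and 0.24 CPM per kilobase in the control and 3.45 and 3.62 in the tumor libraries, and Smad4 is 14.6 to 15.6 against 21.7 to 22.9.

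The inhibitors moved in opposite directions. Smad7 (ENSMUSG00000025880, chromosome 18) encodes an inhibitory SMAD that blocks TGFBR1 and is itself induced by TGF-beta. It had 85 and 69 counts in the control and 184 and 167 in the tumor libraries, or 4.45 ± 0.115 against 9.57 ± 1.5 CPM (SD, n = 2 each). Both tumor libraries were above both control libraries, and the tumor pair was the more spread, at 10.6 and 8.51 CPM. Smad7 was 2.14-fold higher (log2 fold change 1.10 ± 0.173, SE, edgeR adjusted p = 4.52e-06). Over the 12 alternative fits the value ranged from 0.93 to 1.61 and stayed past the threshold.

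Skil (ENSMUSG00000027660, plus strand of chromosome 3, 31095058 to 31122577) encodes SnoN, a corepressor that binds SMAD complexes and is also a known TGF-beta target. It was at 817.2 and 795.2 CPM in the control and at 550.3 and 562.7 CPM in the tumor libraries. The groups did not overlap. The tumor level was 69.0% of the control level (log2 fold change -0.53 ± 0.0234, SE, edgeR adjusted p = 2.29e-17). Under scaling on the AM markers the value was -0.02 with an adjusted p of 0.477, so that its fall matched the median fall of these markers. Per kilobase, Smad7 stood at 1.19% and 1.18% of Skil in the control and at 4.14% and 3.24% in the tumor libraries. The shift from Skil toward Smad7 was present in both tumor libraries and does not depend on the scaling.

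**Figure D3:**
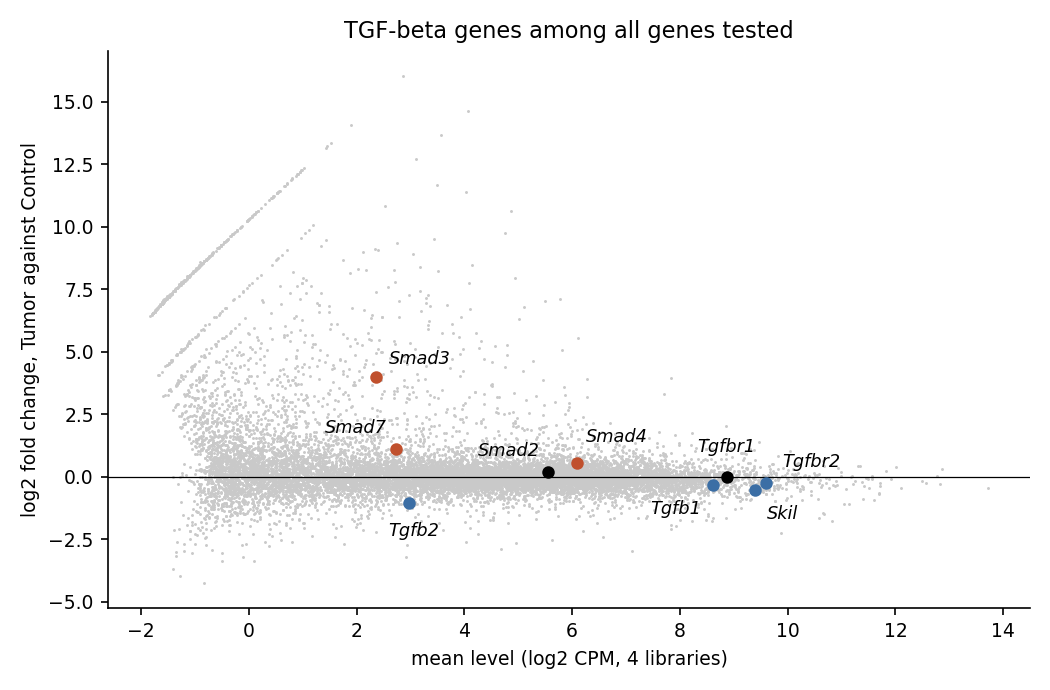
Log2 fold change of tumor against control (vertical axis) against mean level in log2 CPM (horizontal axis) for all 14256 genes tested, in grey, with 9 TGF-beta genes marked in orange (higher, adjusted p under 0.05), blue (lower) or black (not past the threshold). Smad3 at 4.00 stands apart from the other 8 genes, which lie between -1.04 and 1.10. The grey diagonal lines are genes with few or no counts in the control libraries, whose fitted fold changes are not bounds.

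The order of levels per kilobase was Tgfbr2, Tgfb1, Skil, Tgfbr1, Smad4, Smad2, Tgfb2, Smad7, Smad3 and Ltbp1 in the control group. The values ran from 103.6 ± 1.5 CPM per kilobase for Tgfbr2 to 0.22 ± 0.0268 for Smad3 (SD, n = 2), with Ltbp1 at 0. In the tumor group Tgfbr1 stood above Tgfb1 and Skil, and Smad3 and Smad7 stood above Tgfb2. No neighbours in either order had overlapping library values, but Tgfbr1 at 70.5 to 72.2 and Tgfb1 at 69.0 to 69.4 in the tumor libraries were close. The order changed when the longest transcript was used as the length, with Tgfb1 then at the top in both groups, since these lengths were between 0.510 and 2.28 times those in the table. Smad3 was the lowest detected gene in the control group and stood above Smad7 and Tgfb2 in the tumor group.

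The surrounding pathway was then described from 91 other genes in 8 lists by role. Of these, 70 were tested and 49 (70.0%) passed the same threshold, 20 higher and 29 lower, against 53.8% of all genes tested. Their median log2 fold change was -0.10, against 0.02 for all genes. With scaling on the AM markers 48 (of 70) were higher and 7 lower, when 71.1% of all genes were higher. Total counts as library sizes gave 26 higher and 24 lower. With at least a 1.5-fold change required, 25 of the 70 passed, against 25.3% of all genes. Values below are for close relatives of the 10 genes and for genes past the threshold with a change of at least 2-fold and at least 50 counts on average in the higher group.

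**Figure D4:**
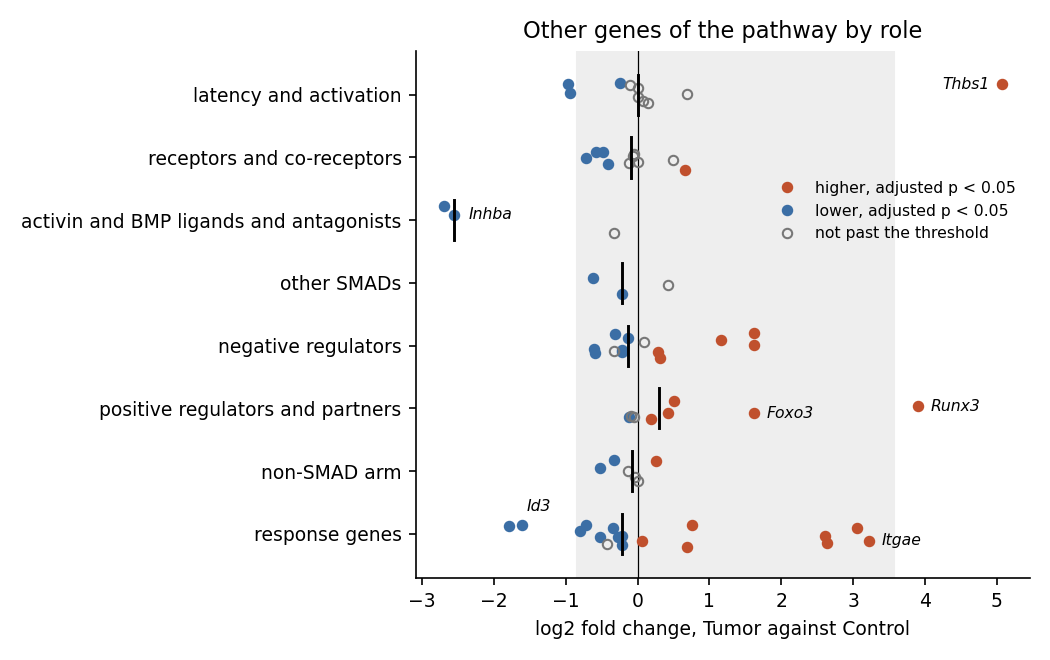
Log2 fold change of tumor against control for the 70 tested genes of the wider pathway, 1 row per role, with higher genes in orange, lower genes in blue and the others open. Black ticks are medians, and the grey band spans the 5th to 95th percentile of all genes tested, from -0.84 to 3.57. Thbs1 at 5.07 and Runx3 at 3.91 lie beyond the band on the right, and Inhba at -2.55 and Id3 at -1.61 lie beyond it on the left.

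Of 15 genes that hold latent TGF-beta or free it, 10 were tested, 1 was higher and 3 were lower, and under scaling on the AM markers 7 were higher and none lower. With total counts as library sizes 5 were higher and 3 lower. Thbs1, which encodes thrombospondin 1, a matrix protein that can activate latent TGF-beta, rose from 9.61 ± 0.921 to 321.9 ± 15.5 CPM (SD, n = 2), or 33.6-fold (log2 fold change 5.07 ± 0.0597, SE, edgeR adjusted p = 1.06e-30). The latent binding protein genes were low. Ltbp3 changed from 4.81 to 2.51 CPM, a log2 fold change of -0.94 ± 0.230 (SE) with an adjusted p of 0.001, and without control replicate 1 it was -0.72 with an adjusted p of 0.0586. Ltbp2 changed by -0.96 ± 0.347 (SE) with an adjusted p of 0.0208. It was not called without control replicate 2, at -0.65, without tumor replicate 1, at -0.86, or in the Wald test of DESeq2, with an adjusted p of 0.126. Ltbp4 had 8 and 14 counts in the control and 26 and 12 in the tumor libraries, with an adjusted p of 0.271, and its value of 0.69 became -0.08 without tumor replicate 1. Under scaling on the AM markers the falls of Ltbp2 and Ltbp3 were not called and Ltbp4 was higher by 1.20 with an adjusted p of 0.0349. Nrros, which encodes the protein that tethers latent TGF-beta to macrophages and was picked out after its values were seen, was at 133.1 ± 0.768 and 140.1 ± 2.00 CPM (SD, n = 2 each), with an adjusted p of 0.113, and was higher by 0.59 under scaling on the AM markers.

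Receptors and co-receptors of the wider family were tested for 10 of 12 genes, of which 1 was higher and 4 lower, against 6 higher and 1 lower under scaling on the AM markers. The co-receptor gene Tgfbr3 had between 3 and 12 counts and was not tested. The 4 lower genes, named after their values were seen, were Acvr1b, Acvrl1, Bmpr2 and Zfyve9, with log2 fold changes between -0.72 and -0.40, and the higher gene was Bmpr1a at 0.66. Of the 4, only Acvr1b was still lower under scaling on the AM markers, at -0.20, while Acvrl1, Bmpr2 and Zfyve9 were not called, at 0.11, 0.03 and -0.06. Acvr1b encodes a type I receptor for activin, and its ligand gene Inhba, which encodes the activin A subunit, fell from 119.3 ± 1.04 to 20.3 ± 2.38 CPM (SD, n = 2). This fall was -2.55 ± 0.0661 on the log2 scale (SE), and its edgeR adjusted p was 1.06e-22. Of the 13 activin and BMP ligands and antagonists, 3 were tested and 2 were lower, under either scaling. In 7 of these 13 genes both control libraries had 3 counts or fewer.

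Of the other SMADs, Smad1, which carries BMP signals, fell from 62.99 ± 3.30 to 40.9 ± 1.01 CPM (SD, n = 2, log2 fold change -0.62 ± 0.0655, SE, edgeR adjusted p = 4.42e-09). Under scaling on the AM markers it was -0.10 and not called, with an adjusted p of 0.150. Smad5, of the same branch, changed by -0.22 ± 0.0823 (SE) with an adjusted p of 0.0256. It was not called without control replicate 1, without control replicate 2 or without tumor replicate 1, at -0.23, -0.24 and -0.20. The call was also lost with total counts as library sizes, at -0.15, and in the Wald test of DESeq2, with an adjusted p of 0.131, and the value was 0.30 under scaling on the AM markers. Smad6, the inhibitory SMAD of the BMP branch, had between 7 and 16 counts and was not called by either scaling, with an adjusted p of 0.524 (TMM) or 0.110 (AM markers). Of the 3 of these genes tested, 2 were lower under TMM, and 1 was higher and none lower under scaling on the AM markers. Smad9 had at most 6 counts and was not tested. Among the SMAD genes tested, Smad3 thus had the change of greatest size, followed by Smad7, and Smad1 and Smad5 were lower under TMM scaling.

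Of 13 negative regulators, all were tested, with 5 higher and 6 lower. The balance was 10 higher and none lower under scaling on the AM markers, and 6 higher and 3 lower with total counts as library sizes. Ski, the close relative of Skil, fell from 416.3 ± 4.01 to 334.9 ± 4.48 CPM (SD, n = 2, log2 fold change -0.31 ± 0.0271, SE, edgeR adjusted p = 7.81e-11), which turned to 0.20 under scaling on the AM markers. Nedd4l, which encodes a ubiquitin ligase of activated SMADs, rose 3.07-fold, by 1.62 ± 0.162 on the log2 scale (SE). Of the 8 tested positive regulators and partners, 5 were higher and 1 was lower, and all 8 were higher under scaling on the AM markers, by which 71.1% of all genes were higher. Runx3, a transcription factor that cooperates with SMADs, rose from 1.25 ± 0.339 to 19.2 ± 1.89 CPM (SD, n = 2, log2 fold change 3.91 ± 0.192, SE, edgeR adjusted p = 3.24e-16), and Foxo3 rose by 1.62 ± 0.0576 (SE). In the non-SMAD arm 1 of 6 genes was higher and 2 were lower, against 5 higher and none lower under scaling on the AM markers.

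Genes known to respond to TGF-beta did not move one way. Of 19, 17 were tested, with 7 higher, 9 lower and a median log2 fold change of -0.22, and 94.1% passed the threshold against 53.8% of all genes. With libraries scaled on the AM markers 11 were higher and 4 lower, and the median was 0.30. Id3, which responds to BMP and TGF-beta, fell from 40.4 ± 4.16 to 13.2 ± 0.557 CPM (SD, n = 2), by 1.61 on the log2 scale with an SE of 0.0969. It remained lower under scaling on the AM markers, at -1.09. Fn1 and Id2 were also lower, at -0.80 and -0.72 (log2), and at -0.29 and -0.20 under that scaling. Both are response genes that were picked out after their values were seen. Itgae, which encodes the integrin chain CD103, rose by 3.22 ± 0.285 and Snai1 by 2.64 ± 0.311 on the log2 scale (SE), with edgeR adjusted p of 1.26e-10 and 3.58e-08. The response genes Col1a1 and Col1a2, which are also fibroblast markers and were picked out after their values were seen, rose from at most 5 counts in a control library to between 21 and 42 counts in the tumor libraries. The 5 fibroblast markers summed to between 3.55 and 4.05 CPM in the control and between 8.14 and 9.68 CPM in the tumor libraries, with 4 of 5 higher. Pparg, a transcription factor of AMs that TGF-beta is known to sustain and that was also picked out after its values were seen, changed by -0.22 ± 0.0337 (SE), which turned to 0.30 under scaling on the AM markers.

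Marker lists of other cells were set beside Smad3, Smad7, Runx3 and Itgae, which rose from low levels. Apart from the eosinophil, neutrophil, basophil and hepatocyte lists given above, the T and NK cell markers summed to between 4.00 and 4.94 CPM in the control and between 11.8 and 12.1 CPM in the tumor libraries, with 1 of 4 tested genes higher. The dendritic cell markers summed to between 11.7 and 11.8 against between 35.8 and 37.4 CPM, with 3 of 6 higher and 1 lower, and the B cell markers to between 6.21 and 6.30 against between 12.2 and 13.2 CPM, with 4 of 5 higher. The megakaryocyte and platelet markers, of interest because platelets carry TGF-beta, summed to between 6.24 and 6.34 against between 24.5 and 27.8 CPM, a rise borne by Itga2b, whereas Pf4 fell and Gp1bb had 0 counts in every library. The endothelial markers summed to between 4.37 and 5.71 against between 21.3 and 25.1 CPM, with 2 of 4 higher. Pecam1, which leukocytes also express, carried this sum, from 2.13 to 18.8 CPM, and the other 4 markers summed to between 2.34 and 3.47 against between 3.77 and 4.91 CPM. The monocyte and interstitial macrophage markers were lower in sum, at between 351.6 and 354.3 against between 208.7 and 223.8 CPM, with 2 of 8 higher and 5 lower. Fn1 carried this sum, from 314.1 to 180.3 CPM, and the other 7 markers summed to between 38.7 and 38.9 against between 34.9 and 37.0 CPM. The monocyte genes Ly6c2 and Ccr2 were higher, by 2.46 and 1.33 on the log2 scale. The alveolar type 2 and club cell markers summed to between 80.4 and 82.8 against between 26.5 and 30.6 CPM, with 4 of 5 lower, a sum carried by the club cell gene Scgb1a1 at 72.7 against 22.2 CPM. Sftpc, an alveolar type 2 gene, was at 2.41 against 3.32 CPM and not called. Sftpb and Sftpa1, also of type 2 cells and also at low levels, were lower, at 2.15 against 1.16 and 1.72 against 0.85 CPM. The carcinoma and epithelial markers were at 134.3 to 138.3 against 116.8 to 117.3 CPM, with 2 of 4 higher and 2 lower. Epcam and Cdh1 carried this sum, whereas the keratin genes Krt8 and Krt18 rose from 0.34 to 1.20 and from 0.45 to 6.01 CPM. The part of all these cells in the levels of Smad3 and the other genes was not tested.

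**Figure D5:**
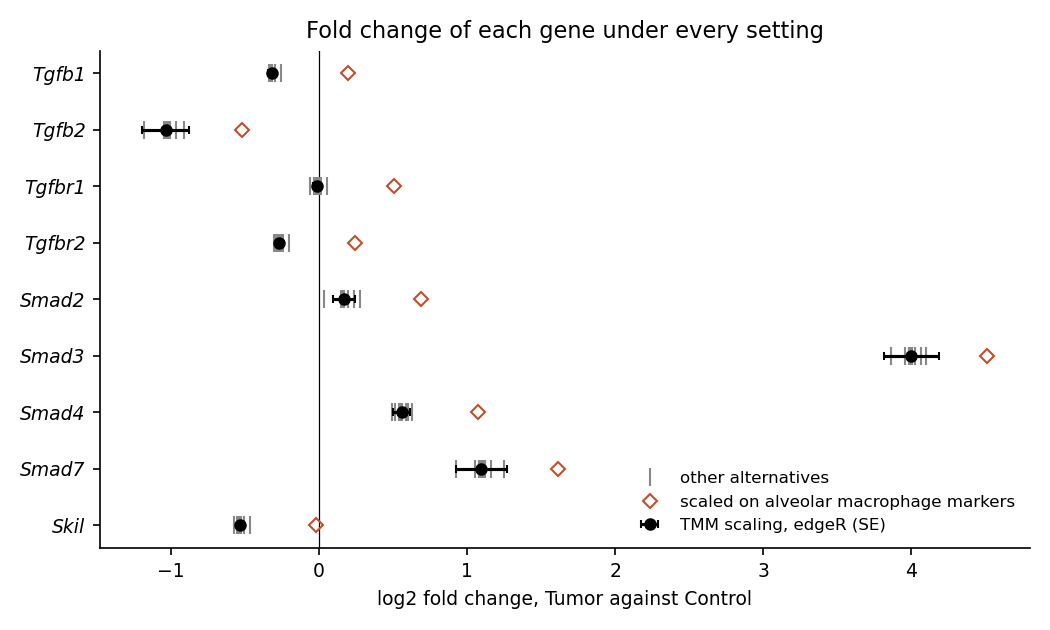
Log2 fold change of 9 TGF-beta genes (horizontal axis) with 1 row per gene. Black points are the TMM-scaled edgeR values with their SE, grey ticks are the other alternative fits, and orange diamonds are the fit scaled on AM markers. The diamonds lie about 0.5 to the right of the black points in every row, which carries Tgfb1 and Tgfbr2 across 0 and Skil to -0.02, and leaves Smad3, Smad4 and Smad7 higher and Tgfb2 lower.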

How the data were processed

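The authors deposited raw, unnormalized read counts for each gene and library. Per the study's methods and the labels, paired-end reads of NEBNext Ultra libraries were aligned with HISAT2 2.0.5 and counted with featureCounts. DESeq2 is also listed among the submitters' tools. The annotation release, strand setting and treatment of multi-mapping reads are not given in the sources used here. Of the 54532 gene identifiers, GENCODE M21 (GRCm38) held 54495, 98.3% with identical coordinates, as were 9 of the 10 genes. Smad2 differed in its end. Gene lengths, from the same deposited table, served for levels per kilobase.

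Libraries were grouped by their titles. The tests used edgeR 4.0.16 under R 4.3.3. The filter was filterByExpr with a minimum count of 10, which left 14256 genes, library sizes were scaled by TMM, and the quasi-likelihood test had group as its single term, 2 residual degrees of freedom and a threshold of 0.05 after Benjamini-Hochberg adjustment over all genes tested. Each SE was derived from the log2 fold change and its F statistic (absolute value over root F). The levels are CPM with the SD over 2 libraries. Counts were simulated at the library sizes of this comparison, with 200 changed genes and 14113 genes tested. Of the changed genes 91.0% were recovered, and 3.19% of calls were false. The changes went in random directions, the spread was set equal for every gene, and far more genes (53.8%) were called in the data. These rates therefore cannot vouch for the calls reported here. Alternatives were DESeq2 size factors, total counts, scaling on AM markers, no filter, a minimum of 10 counts per library, DESeq2 1.42.0 with its Wald test, voom with limma 3.58.1, the replicate number as a block, a 1.5-fold minimum and each library left out. All 10 genes are described, and other genes were named by a change of at least 2-fold with at least 50 counts or as close relatives, apart from those said to be picked out later. The result for 1 gene that met this rule is not reported here. The genes and lists were chosen with earlier results of these data known. Promoter sequences are from RefSeq.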

Additional observations from a re-analysis of the deposited data

How the results depend on the processing

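Smad3, Smad4, Smad7 and Tgfb2 kept their direction and call in each of the 12 alternative fits. Scaling on the AM markers turned Tgfb1 to 0.19 and Tgfbr2 to 0.25, raised Tgfbr1 to 0.50 and Smad2 to 0.69 (adjusted p of 2.34e-09), and left Skil at -0.0186 and no longer called. By construction it shifts every gene by about the same amount. Tgfbr1, which was not called, also changed sign with total counts as library sizes (0.0537) and when every library had to hold 10 counts (0.0120), and ranged from -0.0617 to 0.0067 when 1 library was left out. Smad2 passed the threshold with total counts (0.24) and under that stricter filter (0.19), and ranged from 0.0329 to 0.2788 with 1 library left out. In those fits the single library of a group is assumed to vary like the others. The cause of these changes was not tested. Requiring a 1.5-fold change left 3 of the 9 genes, 25 of the 70 pathway genes and 3607 of all genes. Beyond the 10 genes, 16 tested genes that met the naming rule gave 189 alternative values, of which 173 kept direction and call, 12 lost the call, 1 gained it and 3 changed sign (Ltbp4 to -0.0773 without tumor replicate 1, within a range up to 1.2562 when 1 library was left out, and Smad5 to 0.30 and Ski to 0.20 under scaling on the AM markers).

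The replicate numbers of the 2 groups share only a number. The correlation over genes of the differences between replicates 1 and 2 in both groups was -0.00278. With the replicate number as a block, 7446 genes, 7 of the 9 genes and 49 of the 70 pathway genes passed, and no call of the 9 changed. Depth limited precision most for Smad3, Smad7 and Tgfb2, which had the fewest counts and the largest SEs of the 9 genes.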
